A study of Mus musculus with 22 samples.

Results

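Myelin and mature oligodendrocyte genes were followed in RNA-Seq read counts from 2 brain regions, hippocampus (HIP) and entorhinal cortex (EC), of Ts66Yah mice and wild-type (wt) littermates. The group held 28 named genes (Mbp, Mog, Mag, Mobp, Cnp, Cldn11, Mal, Ermn, Opalin, Aspa, Ugt8a, Fa2h, Gjb1, Gjc3, Trf, Tspan2, Cryab, Qdpr, Gpr37, Tmem88b, Ppp1r14a, Nkx6-2, Hapln2, Apod, Car2, Pllp, Plekhh1 and Lpar1), chosen by symbol as known products of myelinating oligodendrocytes, out of 55385 genes in the count table. All 28 were found and all 28 passed the filter on low counts in every comparison.

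The mice were adult males aged 5 to 6 months, 5 wt and 6 Ts66Yah, and each gave 1 HIP and 1 EC library, which made 22 libraries. Ts66Yah mice, used to model Down syndrome, have a freely segregating minichromosome that carries an additional copy of the distal part of mouse chromosome 16 (Mmu16), from Mir155 to the telomere. The line goes back to 1 founder and was kept on a mixed B6C3B background. None of the 28 genes lies on that segment, although Apod lies elsewhere on Mmu16, so that their gene dosage was the same in both genotypes.

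Oligodendrocytes wrap axons of the central nervous system in compact sheaths of lipid and protein, which allow fast conduction and supply the axon with metabolites. The proteins of compact myelin, the adhesion molecules of its surface, the enzymes of its lipids and the connexins that couple glia are made late, once the cell has left the precursor state. White matter tracts hold most of the myelin of the forebrain, and grey matter holds less.

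Library totals ranged from 25900479 to 50105778 counts, with a median of 34666782. Levels are given as CPM, the count of a gene scaled to a library of 1000000 counts after TMM normalization, and levels of different genes are compared only per kilobase of annotated exon (CPM per kb). Markers matched the labelled regions, since 6 of the 7 hippocampal marker genes were called lower (1 higher) and 6 of the 7 cortical marker genes higher in EC than in HIP of wt mice. The 6 genes of the peripheral myelin list summed to 73.9 to 122 CPM, but Pmp2, a lipid-binding protein of Schwann cell myelin, had 1 count in 1 library and 0 in all others. The choroid plexus markers varied between libraries, with a summed level of 114 to 3343 CPM in HIP and 10.0 to 42.3 CPM in EC.

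Per kilobase of exon, Mbp, which encodes the basic protein that holds the cytoplasmic faces of compact myelin together, had the highest mean level in all 4 groups. It stood at 486 ± 94.4 CPM per kb in HIP of wt mice (SD, n = 5) and 451 ± 50.5 in HIP of Ts66Yah mice (SD, n = 6). In EC it stood at 121 ± 47.1 in wt (n = 5) and 122 ± 29.7 in Ts66Yah mice (n = 6). Next in HIP of wt mice came Mobp, another basic protein of myelin, at 166 ± 36.1 CPM per kb. It was followed by Mal, Trf and Cnp at 136 ± 26.8, 132 ± 28.7 and 131 ± 17.4 CPM per kb, which lie within each other's spread. The order ended with Ppp1r14a, Pllp and Nkx6-2 at 6.05 ± 2.38, 4.99 ± 1.09 and 3.60 ± 1.17 CPM per kb.

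The order of levels differed between regions below Mbp. In EC of wt mice the second and the third place were taken by Car2, a carbonic anhydrase, at 55.5 ± 4.97 CPM per kb and Qdpr, which regenerates tetrahydrobiopterin, at 50.5 ± 6.97 CPM per kb (SD, n = 5). Mobp held the second place in HIP and the eighth in EC, where it had 33.8 ± 17.5 CPM per kb. The last place was held by Nkx6-2, a homeodomain transcription factor, in all 4 groups. Car2, Qdpr, Apod and Cryab, which took 4 of the 5 highest places in EC of wt mice, were also the 4 genes with the smallest regional difference.

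The myelin genes are spread over 15 chromosomes in the GENCODE M21 annotation of GRCm38. Mag, the myelin-associated glycoprotein of the inner sheath, lies at chr7:30899176-30914873 and overlaps no other annotated gene. Mog, a glycoprotein of the outer sheath, lies at chr17:37010743-37023398 with a small gene model (Gm22388) on the other strand. Cnp, a phosphodiesterase of non-compact myelin, lies at chr11:100574904-100591729 and overlaps Dnajc7 on the other strand. Cldn11, the claudin of myelin tight junctions, lies at chr3:31149920-31164324 with no overlapping gene. In all, 13 of the 28 genes overlap another annotated gene, 3 of them (Mobp, Trf and Lpar1) on the same strand, and how the counting divided such reads is not stated.

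The promoters of 4 of these genes are shown as examples, and they hold from 0 to 6 of the short motifs searched here. Mal and Pllp encode related tetraspan proteins of myelin lipid rafts, Opalin a sialylated membrane glycoprotein of oligodendrocytes, and Mobp a basic myelin protein. Sequences are from RefSeq (GRCm38.p6), 5′ to 3′ on the strand of the gene, and run over 210 bases that end 40 bases before the annotated start. They cover chr2:127656736-127656945 (minus strand, Mal), chr8:94696283-94696492 (minus strand, Pllp), chr19:41077154-41077363 (minus strand, Opalin) and chr9:120149492-120149701 (plus strand, Mobp). Capitals mark matches, on either strand, to ACAAAG or ACAATG, short forms of the site that SOX factors such as SOX10 bind, or to CTGGCAC or CTGGTAC, short forms of the site of the myelin regulatory factor MYRF.
Mal: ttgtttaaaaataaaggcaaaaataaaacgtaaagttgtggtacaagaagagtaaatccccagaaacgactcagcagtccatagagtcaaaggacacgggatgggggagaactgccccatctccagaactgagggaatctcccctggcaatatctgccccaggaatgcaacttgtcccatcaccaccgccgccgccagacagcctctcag
Pllp: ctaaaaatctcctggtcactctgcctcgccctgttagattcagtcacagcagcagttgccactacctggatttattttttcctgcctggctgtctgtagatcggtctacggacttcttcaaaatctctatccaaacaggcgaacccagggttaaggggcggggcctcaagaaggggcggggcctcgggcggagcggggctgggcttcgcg
Opalin: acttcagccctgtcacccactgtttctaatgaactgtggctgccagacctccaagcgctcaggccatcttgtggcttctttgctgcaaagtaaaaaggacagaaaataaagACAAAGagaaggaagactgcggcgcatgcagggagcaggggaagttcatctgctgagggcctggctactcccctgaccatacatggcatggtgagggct
Mobp: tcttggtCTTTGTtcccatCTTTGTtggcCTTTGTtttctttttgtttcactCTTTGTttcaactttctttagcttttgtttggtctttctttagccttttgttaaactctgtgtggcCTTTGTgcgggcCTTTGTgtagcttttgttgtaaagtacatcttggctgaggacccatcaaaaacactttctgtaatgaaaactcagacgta

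The Mobp sequence holds 6 matches, all of them CTTTGT, the reverse complement of ACAAAG, within a T-rich stretch, Opalin holds 1, and those of Mal and Pllp hold none. Promoters were found for 23 of the 28 genes, with 31 start sites in all. Over the 250 bases before each start, a SOX-type match was present in 14 of these 31 promoters (45.2%) and in 25.2% of the 32841 promoters of all genes. A MYRF-type match was present in 6 of the 31 promoters (19.4%), of Cnp, Hapln2, Lpar1, Mag and Mog, and in 5.93% of all. These are matches of letters, and several of the 31 promoters belong to the same gene.

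All 28 genes were lower in EC than in HIP in both genotypes. In wt mice the median log2 difference (EC minus HIP) over the 28 genes was -2.07, against a median of 0.01 over all 17935 genes tested, which is a median level 4.21-fold higher in HIP. In Ts66Yah mice the median was -1.91, against 0.01 over 18043 genes, or 3.76-fold. With edgeR's quasi-likelihood test and p-values adjusted by Benjamini and Hochberg across the whole table, 28 of 28 were called lower in EC in wt mice, where 24.3% of all tested genes were called lower, and 28 of 28 in Ts66Yah mice, where 27.5% were. Adjusted p ranged from 8.0e-07 to 0.00328 in wt and from 3.26e-10 to 0.000278 in Ts66Yah mice. In bulk tissue, fewer oligodendrocytes and less of these transcripts per oligodendrocyte cannot be told apart.

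Mbp had 4868, 3621, 5098, 3522 and 3462 CPM in HIP of the 5 wt mice, and 1177, 1649, 744, 660 and 914 CPM in EC of the same mice in the same order. In the 6 Ts66Yah mice it ranged from 3282 to 4419 CPM in HIP (median 3833) and from 791 to 1453 CPM in EC (median 943). Every HIP library lay above every EC library. The log2 difference was -1.998 (SE 0.23) in wt and -1.89 (SE 0.14) in Ts66Yah mice.

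Mobp had 1247, 1254, 1431, 882 and 877 CPM in HIP of the wt mice and 272, 421, 137, 135 and 193 CPM in EC. In the Ts66Yah mice it had 917 to 1093 CPM in HIP (median 1074) and 146 to 345 CPM in EC (median 197). Mobp in HIP of Ts66Yah mice was the least variable of the 28 genes in that group, with an SD of 0.10 on the log2 scale, while in EC of wt mice its SD was 0.70.

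The glycoproteins of the sheath surface followed the same order of regions. Mog had 116, 95.8, 114, 88.8 and 79.6 CPM in HIP of wt mice and 29.2, 39.4, 15.6, 14.4 and 16.1 CPM in EC. In Ts66Yah mice Mog had 87.2 to 113 CPM in HIP (median 100.4) and 16.8 to 35.0 CPM in EC (median 24.1). For both genotypes the HIP values lay well clear of the EC values.

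Mag had 317, 288, 357, 261 and 228 CPM in HIP of wt mice and 72.7, 117, 51.5, 39.1 and 48.6 CPM in EC. In Ts66Yah mice it had 272 to 351 CPM in HIP (median 319) and 56.1 to 102 CPM in EC (median 66.6). The 3 lowest EC values of Mog and of Mag came from the same wt mice, replicates 3, 4 and 5.

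Cnp had 535, 437, 557, 448 and 414 CPM in HIP of wt mice and 151, 210, 116, 116 and 134 CPM in EC. In Ts66Yah mice it had 401 to 535 CPM in HIP (median 439) and 122 to 195 CPM in EC (median 149). Its log2 difference of -1.72 (SE 0.16) in wt was smaller than that of the other 5 structural genes, whose values ran from -1.998 to -2.30.

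Cldn11 had 177, 156, 225, 138 and 139 CPM in HIP of wt mice and 39.8, 56.0, 28.4, 25.6 and 29.5 CPM in EC. In Ts66Yah mice it had 108 to 160 CPM in HIP (median 133) and 24.6 to 45.9 CPM in EC (median 33.9). The 2 genotypes overlapped in both regions, and the regions did not overlap in either genotype.

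**Figure D1:**
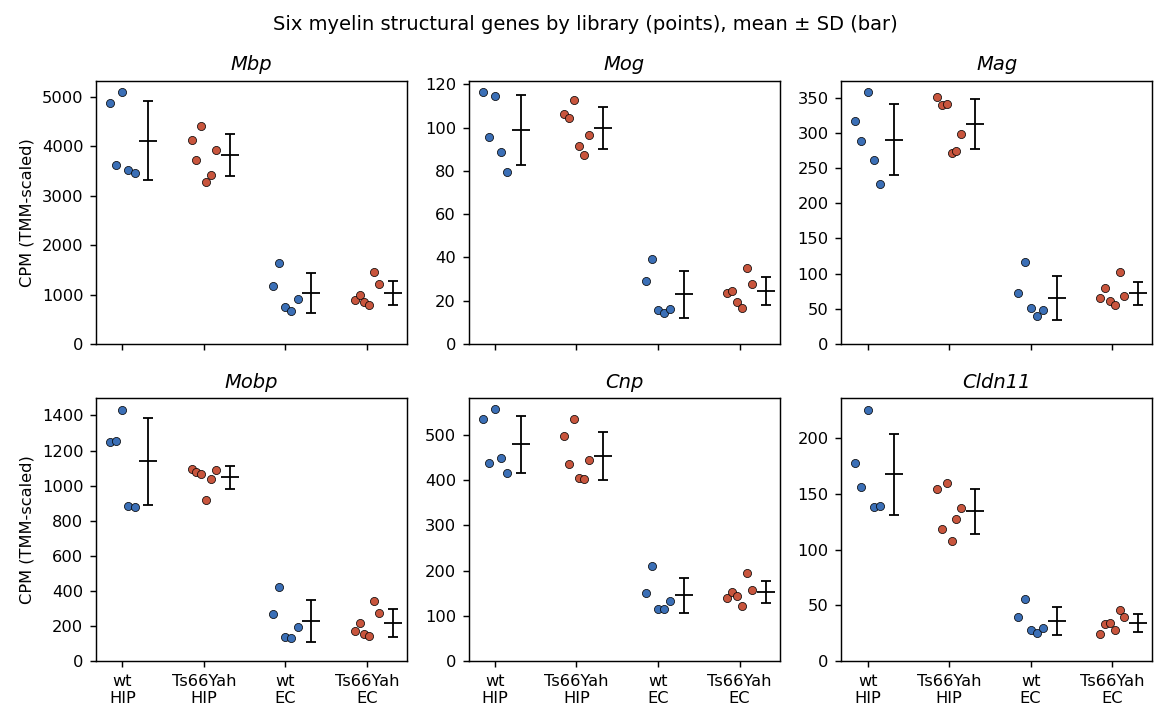
Levels in CPM (linear axis from 0) of the 6 structural genes Mbp, Mog, Mag, Mobp, Cnp and Cldn11, with 1 point per library (blue wt, red Ts66Yah) and bars for the mean ± SD of each group (n = 5 wt, n = 6 Ts66Yah). For each gene all HIP libraries lie above all EC libraries, and the genotypes overlap within each region.

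The largest regional difference in wt mice was that of Hapln2, a link protein of the matrix at nodes of Ranvier. It had 22.3, 19.5, 23.0, 18.7 and 18.2 CPM in HIP of wt mice and 3.61, 4.97, 1.89, 1.54 and 2.03 CPM in EC, a log2 difference of -2.86 (SE 0.27). In Ts66Yah mice it had 14.6 to 20.6 CPM in HIP (median 18.3) and 1.69 to 4.45 CPM in EC (median 2.59), a log2 difference of -2.71 (SE 0.21). Nkx6-2 and Ppp1r14a, an inhibitor subunit of myosin phosphatase, came next in wt mice with log2 differences of -2.77 (SE 0.33) and -2.57 (SE 0.37). Their longest coding transcripts were also the richest in GC of the 28 (65.7% for Nkx6-2, 61.7% for Ppp1r14a and 59.5% for Hapln2, against 38.0% to 57.6% for the others), and the part of GC content in these differences was not tested. Opalin followed at -2.45 (SE 0.24) in wt and -2.42 (SE 0.16) in Ts66Yah mice.

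The smallest difference was that of Cryab, a small heat shock protein that astrocytes also make. It had 93.0, 81.8, 103, 84.3 and 69.5 CPM in HIP of wt mice and 66.2, 74.7, 52.2, 52.0 and 51.8 CPM in EC. In Ts66Yah mice it had 85.9 to 110 CPM in HIP (median 100.2) and 54.0 to 87.1 CPM in EC (median 59.1). Cryab was the only 1 of the 28 genes in which HIP and EC libraries overlapped, in each genotype. The log2 difference was -0.54 (SE 0.12, edgeR adjusted p = 0.00328) in wt and -0.63 (SE 0.11, adjusted p = 0.000142) in Ts66Yah mice.

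For the other 27 genes every EC library lay below every HIP library in wt mice, a pattern of 18.6% of all tested genes, and in Ts66Yah mice, where 16.9% of all tested genes had it. Compared within each mouse, all 28 genes were higher in HIP than in EC in 11 of 11 mice. The ratio ran from 1.09 for Cryab in wt mouse 2 to 13.6 for Nkx6-2 in wt mouse 4. In wt mice, 373 genes were called with a larger fall from HIP to EC than the median of the 28.

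By role, the enzymes and carriers of myelin lipids spanned a wide range. In wt mice the log2 differences were -1.68 (SE 0.21) for Ugt8a, which makes galactosylceramide, and -2.04 (SE 0.27) for Fa2h, which hydroxylates the fatty acids of these lipids. Aspa, which frees acetate from N-acetylaspartate, had -2.15 (SE 0.19). The raft proteins Mal and Pllp had -2.16 (SE 0.22) and -1.52 (SE 0.18). Apod, a lipocalin that carries small lipids, had only -0.57 (SE 0.11).

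The connexins fell alike, with -2.20 (SE 0.30) for Gjb1 (connexin 32) and -1.79 (SE 0.15) for Gjc3 (connexin 29). Among receptors and membrane proteins, Gpr37 had -1.90 (SE 0.18), Tspan2 -1.74 (SE 0.18), Tmem88b -2.13 (SE 0.24) and Lpar1, a receptor of lysophosphatidic acid, -1.20 (SE 0.15). Ermn, which binds actin in the sheath, had -2.14 (SE 0.25), and Plekhh1 had -2.32 (SE 0.26). Among the other enzymes and carriers, the iron carrier Trf had -1.79 (SE 0.25), with -1.13 (SE 0.11) for Qdpr and -0.91 (SE 0.09) for Car2.

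**Figure D2:**
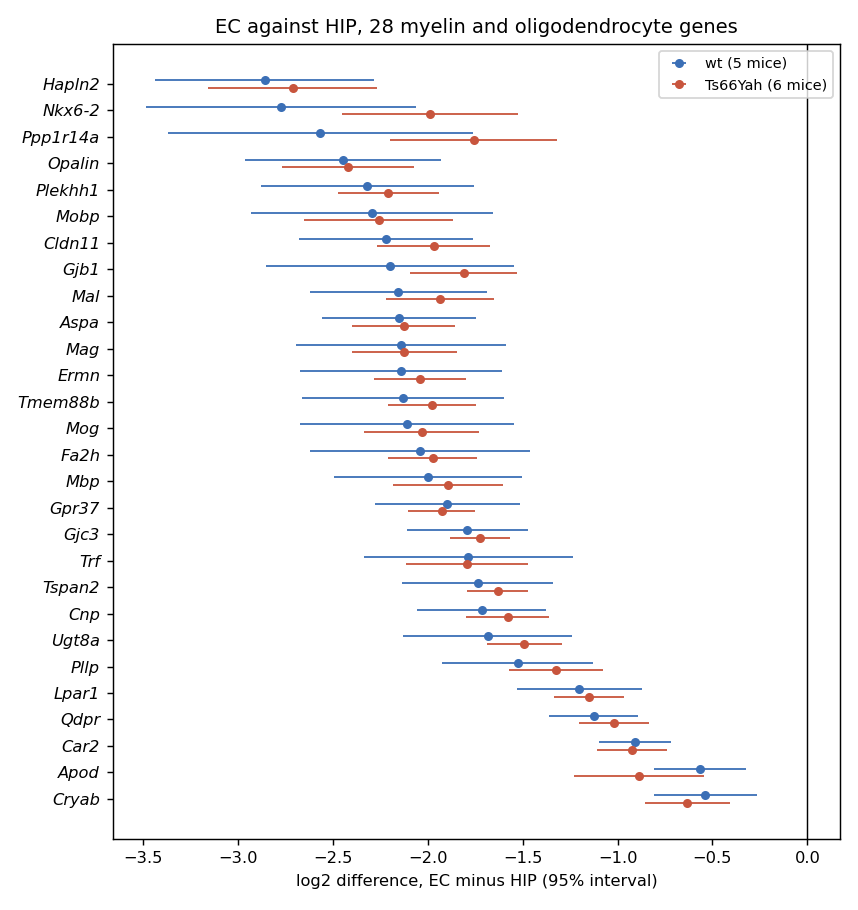
Log2 difference EC minus HIP (horizontal axis, points) with its 95% interval (lines) for each of the 28 genes in wt (blue, 5 mice) and Ts66Yah mice (red, 6 mice), ordered by the wt value. All 56 values are below 0, from -2.86 for Hapln2 to -0.54 for Cryab in wt.

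A list of 46 other oligodendrocyte and myelin genes moved the same way. In wt mice 42 were called lower in EC, 2 higher (Dusp26 and Omg) and 2 were not called, with a median log2 difference of -1.31. In Ts66Yah mice 43 were called lower and 2 higher, with a median of -1.38. St18, Sec14l5 and Myrf, which encodes the factor that drives myelin genes, had the largest differences of this list in wt mice, at -3.71, -2.71 and -2.30.

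Transcription factors of the whole lineage had smaller differences, and all 3 below were called. In wt mice the log2 differences were -1.40 (SE 0.15) for Sox10, -0.92 (SE 0.19) for Olig1 and -0.95 (SE 0.12) for Olig2, which are expressed from the precursor stage on. Olig1 and Olig2 lie on the segment that is triplicated in Ts66Yah mice. In those mice their regional differences were -0.45 and -0.52.

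Genes of oligodendrocyte precursors and immature cells had no common direction. Of 14 in this list, 5 were called higher and 5 lower in EC in wt mice (median log2 difference 0.03), and 5 higher and 4 lower in Ts66Yah mice (median 0.09). Pdgfra, the growth factor receptor of precursors, was higher in EC by 0.43 in both genotypes (edgeR adjusted p = 0.00112 in wt and 0.000754 in Ts66Yah mice). Enpp6, a marker of newly forming oligodendrocytes, was lower by 1.75 in wt and 1.66 in Ts66Yah mice on the log2 scale, and Nkx2-2 by 1.18 and 0.80. Lhfpl3 was higher in EC by 0.64 in both.

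None of the 28 genes was called between Ts66Yah and wt mice. In HIP 0 of 28 passed the threshold, where 0.591% of 18452 tested genes did, and in EC 0 of 28, where 0.283% of 17658 did. At an unadjusted p under 0.05, edgeR gave 1 of the 28 in HIP (Cldn11), where 2188 of the 18452 tested genes had such a p, and 0 in EC, where 1103 of 17658 had. DESeq2 gave 2 (Cldn11 and Ppp1r14a) and 0 of the 28, and limma voom 1 (Cldn11) and 0, and neither of these tools called any after adjustment. In HIP 9 genes had a positive and 19 a negative difference, and the median log2 difference (Ts66Yah minus wt) was -0.03, against 1.4e-05 over all tested genes. In EC 21 were positive and 7 negative, with a median of 0.08 against -0.0045. No gene separated the genotypes in either region, a pattern that 1.87% of all genes showed in HIP and 0.957% in EC.

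The precision of these comparisons differed between regions. In HIP the median SE of the 28 differences was 0.11 (0.10 over all tested genes), and for 25 of them the 95% interval lay within 1.5-fold in both directions. In EC the median SE was 0.21 (0.12 over all genes), and 15 of the 28 intervals lay within 1.5-fold, while 17 held no 1.5-fold increase and 25 no 1.5-fold decrease. A p that misses the threshold does not show that the genotypes were alike. For the genes whose EC intervals reach beyond 1.5-fold, a change of that size in that direction is not excluded.

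Among the structural genes in HIP, Cldn11 had the lowest unadjusted p of the 28. Its Ts66Yah libraries had 108 to 160 CPM, against 138 to 225 CPM in wt, so that the groups overlapped. The log2 difference was -0.32 (SE 0.13, edgeR adjusted p = 0.347), and -0.19 without wt replicate 3. The differences of the other structural genes in HIP were -0.11 (SE 0.12) for Mbp, 0.01 (SE 0.10) for Mog, 0.11 (SE 0.11) for Mag, -0.12 (SE 0.12) for Mobp and -0.08 (SE 0.09) for Cnp. In EC the 6 values lay between -0.08 and 0.13 with SEs of 0.15 to 0.30.

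Ppp1r14a had the largest difference in HIP, with 5.89, 4.38, 10.0, 8.53 and 12.6 CPM in wt and 4.23 to 7.54 CPM in Ts66Yah mice (median 5.97). The highest 3 wt libraries were replicates 3, 4 and 5, and the other 2 lay inside the Ts66Yah range. The log2 difference was -0.47 (SE 0.23, edgeR adjusted p = 0.45), and leaving out 1 library moved it as far as -0.63 (wt replicate 2) and -0.27 (wt replicate 5). The smallest difference was that of Tspan2, a tetraspanin, with 199, 197, 200.3, 152 and 139 CPM in wt and 148 to 197 CPM in Ts66Yah mice (median 179.8). Its log2 difference was -0.00027 (SE 0.11), which took the other sign under several alternatives.

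Nkx6-2 had the largest difference in EC, with 0.547, 1.57, 0.838, 0.492 and 1.56 CPM in wt and 0.930 to 2.04 CPM in Ts66Yah mice (median 1.24). The log2 difference was 0.40 (SE 0.33, edgeR adjusted p = 0.941) and leaving out 1 library moved it as far as 0.24 (wt replicate 4) and 0.62 (wt replicate 2), while 2 of the 5 wt libraries lay within the Ts66Yah range. In HIP the same gene had -0.39 (SE 0.21, adjusted p = 0.494). The smallest difference in EC was that of Ermn, with 29.7, 42.3, 16.5, 21.1 and 16.0 CPM in wt and 18.6 to 31.3 CPM in Ts66Yah mice (median 25.8), and a log2 difference of -0.0007 (SE 0.23), which likewise took the other sign.

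**Figure D3:**
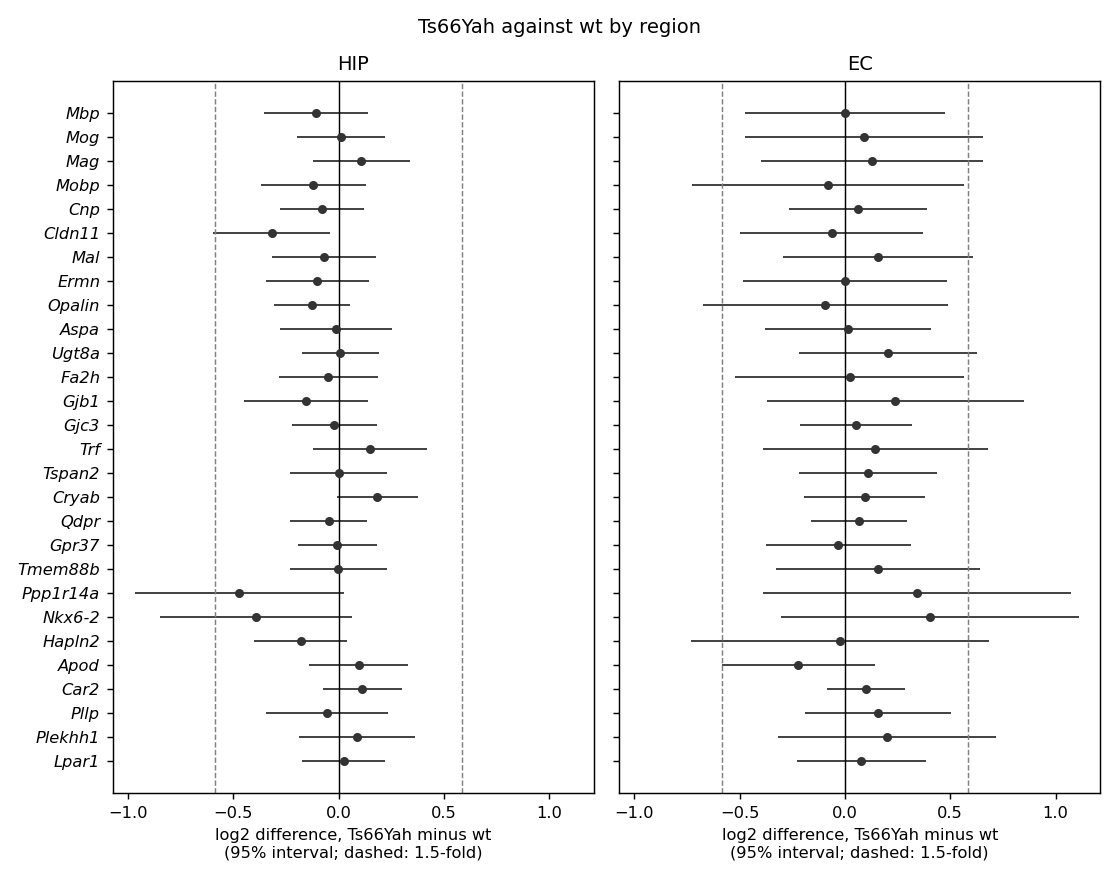
Log2 difference Ts66Yah minus wt (horizontal axis, points) with its 95% interval (lines) for the 28 genes in HIP and in EC, with dashed lines at 1.5-fold. The EC intervals are wider, with a median SE of 0.21 against 0.11 in HIP.

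Whether the genotype difference depended on the region was tested with all 22 libraries in 1 fit. None of the 28 genes was called, and 0 of the 19074 tested genes were (0.0%). The median of the 28 interaction values was 0.11, and 0.34 without wt replicate 2 and -0.05 without wt replicate 3. By edgeR 388 of all tested genes and 0 of the 28 had an unadjusted p under 0.05, with 1 (Nkx6-2) by DESeq2 and 0 by limma voom. The values furthest from 0 were those of Ppp1r14a, at 0.82 (SE 0.43), and Nkx6-2, at 0.79 (SE 0.40), both with an edgeR adjusted p of 0.99996. The regional fall in wt and Ts66Yah mice was -2.57 and -1.76 for Ppp1r14a and -2.77 and -1.99 for Nkx6-2. These fits did not pair the HIP and EC libraries of a mouse. With a block for each mouse, edgeR gave an unadjusted p under 0.05 for 2 of the 28 interaction values. In that fit their median was 0.15, 25 of the 28 were positive, and none was called.

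No gene of the 46 other oligodendrocyte genes, the 14 precursor genes or the 19 genes of cholesterol synthesis was called between genotypes in either region by edgeR. An unadjusted p under 0.05 was found for 3, 1 and 4 of them in HIP and 2, 0 and 4 in EC, against 2188 of 18452 and 1103 of 17658 tested genes. Olig1 had log2 differences of -0.03 in HIP and 0.45 in EC (adjusted p = 0.957 and 0.736) and Olig2 of -0.13 and 0.31 (0.576 and 0.717), in a segment carried in an additional copy. Prx, a gene of the peripheral myelin list, was called in HIP, with 3.30 ± 0.634 CPM in wt (SD, n = 5) and 5.15 ± 0.114 CPM in Ts66Yah mice (SD, n = 6), a log2 difference of 0.65 (edgeR adjusted p = 0.0233). In EC its difference was 0.15 (adjusted p = 0.965).

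The libraries of a group differed from each other in the level of the whole set of genes, most in EC of wt mice and least in HIP of Ts66Yah mice. In EC of wt mice the median SD of the 28 genes was 0.52 on the log2 scale, against 0.20 over all 19074 genes, and 12.6% of all genes had an SD above 0.52. In HIP of wt mice the median SD was 0.25 against 0.17 (34.0% of all genes above it). It was 0.17 against 0.16 in HIP of Ts66Yah mice (47.1%) and 0.25 against 0.20 in EC of Ts66Yah mice (39.9%). The ratio of the highest to the lowest of the 11 libraries had a median of 1.56 in HIP and 2.39 in EC, against 1.49 and 1.61 over all tested genes. It was wider in EC than in HIP for 26 of the 28 genes, the exceptions being Car2 and Pllp.

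One EC library, wt replicate 2, stood above the others. There 27 of the 28 genes lay above the median of the 11 EC libraries, the mean deviation was 0.60 on the log2 scale, and 21 of the 28 genes had their highest EC value in it. Ts66Yah replicate 5 followed, with 24 genes above the median and a mean deviation of 0.38, and Ts66Yah replicate 6, with 23 genes and 0.20. At the other end, wt replicate 4 had 0 of 28 above the median (mean deviation -0.45) and the lowest value of 13 genes, and wt replicate 3 had 1 of 28 (-0.40). The wt group thus held both the highest and the lowest EC libraries.

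**Figure D4:**
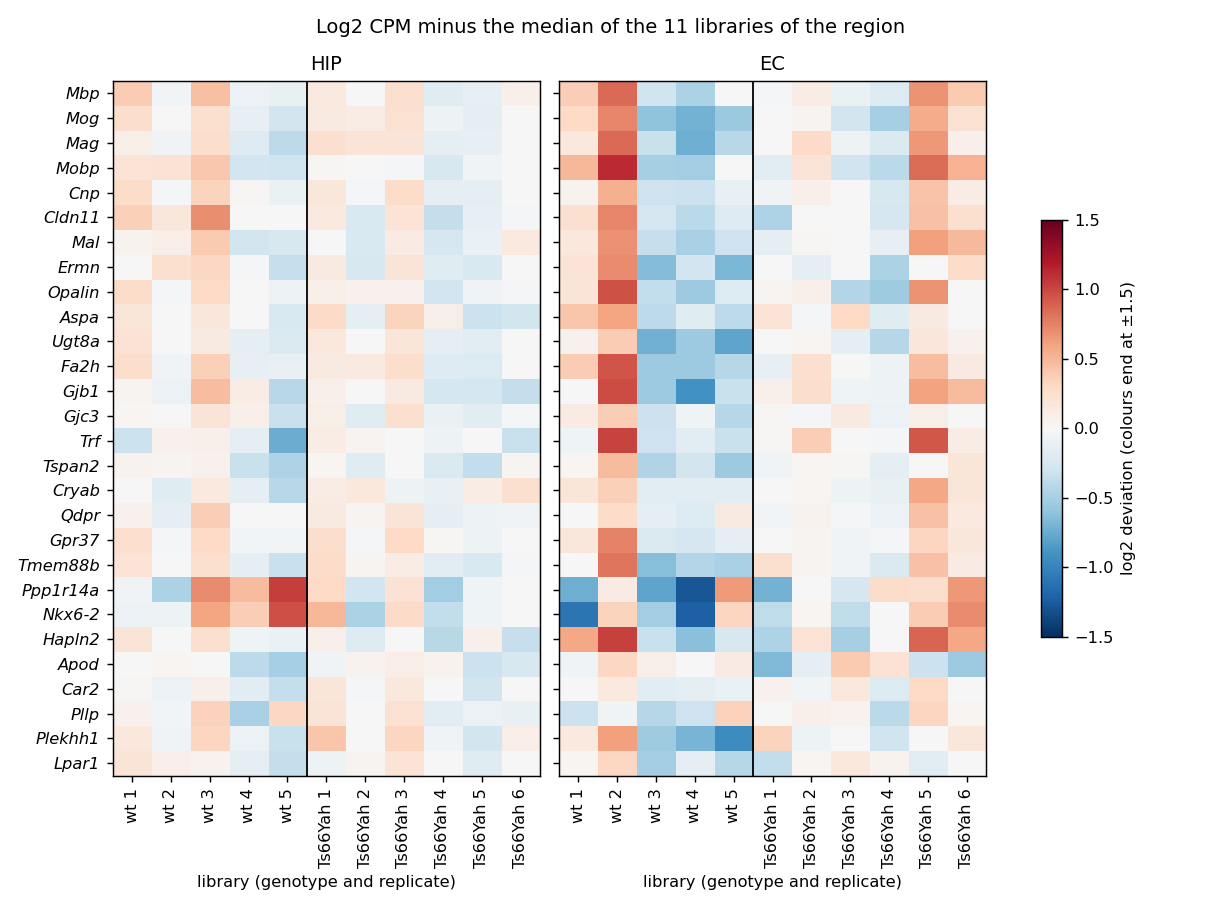
Colour map of log2 CPM minus the median of the 11 libraries of the region, for the 28 genes (rows) in each HIP and EC library (columns, the line separates wt from Ts66Yah), with red above and blue below the median and colours ending at 1.5. In EC the column of wt replicate 2 is red for 27 genes and that of wt replicate 4 blue for 27, the exceptions being Pllp in the first and Apod in the second.

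Other markers moved with the high EC library. Wt replicate 2 also had the highest summed level of the 6 striatal markers, 187 CPM against 93.3 to 129 CPM in the other 10 EC libraries. Adora2a, an adenosine receptor of striatal neurons, had 23.0 CPM there and 1.26 to 8.22 CPM elsewhere in EC, and Drd2 had 8.44 CPM there and 1.23 to 3.94 CPM elsewhere. Drd1 and Gpr6 did not stand out there. Drd1 (21.97 CPM) was higher in Ts66Yah replicates 2 and 6 (22.5 and 29.6 CPM) and Gpr6 (4.46 CPM) in 3 other EC libraries (up to 6.22 CPM). Rgs9 and Ppp1r1b, which make up the rest of the striatal sum, are not given singly. The choroid plexus sum of wt replicate 2, 42.3 CPM, was also the highest in EC, where the others had 10.0 to 20.2 CPM. Ts66Yah replicate 6 had the next highest values of the striatal sum (129 CPM) and of Adora2a (8.22 CPM), while in Ts66Yah replicate 5 they were 102 and 2.84 CPM. The part of these other tissues in the myelin levels was not tested.

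Leaving out wt replicate 2 moved the EC comparison of genotypes, and so did leaving out Ts66Yah replicate 5. The median log2 difference of the 28 genes became 0.26 in place of 0.08, 27 of 28 were positive and 8 had an unadjusted p under 0.05, but none was called (lowest edgeR adjusted p = 0.431). Without Ts66Yah replicate 5 the median was -0.0028, with 14 of 28 positive. In HIP the medians without 1 library ran from -0.09 to 0.04. The comparison of regions in wt mice had a median of -2.34 without wt mouse 2, and 28 of 28 genes stayed below 0 and called.

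The HIP libraries varied less. In HIP of wt replicate 3, 27 genes lay above the median (mean deviation 0.29) and 14 had their highest value, while wt replicate 5 had 3 above the median and the lowest value of 15 genes. Among Ts66Yah mice, replicates 1 and 3 had 25 genes above the median each, and replicates 4 and 5 had 3 and 2. The choroid plexus sum did not follow this order, since it was highest in wt replicate 2 (3343 CPM), where 8 of 28 genes lay above the median, and lowest in wt replicate 4 (114 CPM), where 5 did.

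Some mice were high in 1 region and low in the other, others were low in both, and wt mouse 1 was above the median in both (9880 CPM in HIP, 2635 CPM in EC). The summed level of the 28 genes was 10765 CPM in HIP of wt mouse 3, the highest of 11, and 1818 CPM in its EC, the second lowest. Wt mouse 2 had the highest EC sum (3740 CPM) and a HIP sum of 8469 CPM, the median of the 11 mice. Ts66Yah mouse 5 had 3300 CPM in EC and 7703 CPM in HIP. Wt mouse 4, with 7669 CPM in HIP and 1731 CPM in EC, and Ts66Yah mouse 4, with 7473 and 1972 CPM, were low in both regions. The ratio of HIP to EC was lowest in wt mouse 2 and Ts66Yah mouse 5, at 2.26 and 2.33, and highest in wt mouse 3, at 5.92, with a median of 3.75 over the 11 mice. By genotype, the sums were 8805 ± 1487 CPM (wt, n = 5) and 8433 ± 776 CPM (Ts66Yah, n = 6) in HIP, and 2403 ± 827 and 2448 ± 486 CPM in EC (SD).

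**Figure D5:**
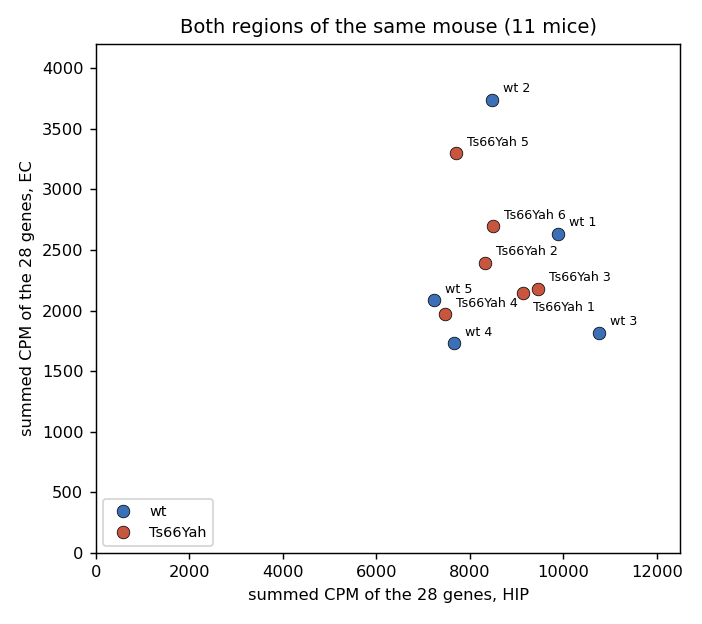
Summed CPM of the 28 genes in HIP (horizontal axis) and EC (vertical axis) of the same mouse, with 1 labelled point for each of the 11 mice (blue wt, red Ts66Yah) and linear axes from 0. Wt mouse 3 is highest in HIP and second lowest in EC, and wt mouse 2 is highest in EC.

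A few of the 28 genes did not follow the rest across libraries. Ppp1r14a and Nkx6-2 had their highest HIP value in wt replicate 5 (12.6 and 10.2 CPM), where 15 others had their lowest, and in EC they were low in wt replicate 1 (0.972 and 0.547 CPM), where 19 of the 28 lay above the median. Both are low in level, between 0.492 and 2.63 CPM in EC. Apod in EC was lowest in Ts66Yah replicates 1 and 6 (67.4 and 73.1 CPM), of which the latter was a library with high myelin genes, and highest in Ts66Yah replicate 3 (141 CPM). Mbp made up 38.1% to 49.3% of the summed CPM of the 28 genes in every library, so that the sum is weighted to Mbp, while the counts of genes above the median weigh all 28 alike.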

How the data were processed

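RNA from HIP and EC of 11 mice was sequenced as single reads of 50 bases. The labels give poly(A) RNA and a stranded mRNA kit, while the methods also name a total RNA kit, so that the RNA fraction behind the counts is uncertain. The authors aligned the reads to GRCm38 with Hisat2 and counted them per gene of Ensembl release 99 with HTSeq-count, and the deposited values are raw read counts. The submitters' processing notes also name bcl2fastq 2.17.1.14 and DESeq2. The strand setting of the counting is not given in the sources used here. The authors' own tables of fold changes and p-values (DESeq2 and FCROS) were not used. All columns were mapped to samples by name, and no row lacked a gene.

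Genes were filtered with filterByExpr and scaled by TMM, and each comparison was fitted across all genes with edgeR 4.0.16 (R 4.3.3) by the quasi-likelihood test, with p-values adjusted by Benjamini and Hochberg and a threshold of 0.05. Genotypes were compared within each region, regions within each genotype, and genotype by region in 1 fit of 22 libraries. The main fits held no term for the mouse, so the regional and interaction tests did not use the pairing of HIP and EC libraries. CPM values use TMM-scaled library sizes, and log2 CPM a prior count of 2. Gene symbols, coordinates and exon lengths came from GENCODE M21 (55144 of 55385 identifiers matched). Alternatives were other size factors, other filters, DESeq2 1.42.0, limma 3.58.1 (voom), all 22 libraries in 1 fit, a replicate block and leaving out each library. Scripts were tested on simulated data.

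The 28 genes, the other lists and the tests were chosen with earlier results of these data known. Values in each wt library, and the range and median of the 6 Ts66Yah libraries, were given for 6 structural genes and for those with the largest and smallest difference in each genotype comparison and between regions in wt mice. Of the other lists, genes called between genotypes, the 3 with the largest regional difference in wt mice and Olig1, Olig2, Sox10, Myrf and Pdgfra were named, except a few that are not reported here. Pmp2, Dusp26 and Omg were named after their values were seen. HIP and EC with the same replicate number came from the same mouse, and their deviations from the group means were correlated (r = 0.207 to 0.454). Wt and Ts66Yah mice with the same number were different animals (r = -0.007 to 0.177). No pair of libraries of a group agreed within counting error.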

Additional observations from a re-analysis of the deposited data

Results flagged for a closer look

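In 116 groups of 5 or 6 libraries, 1 for each gene in each genotype and region and 1 for the summed level, 4 held a library that stood apart by Dixon's criterion, which chance alone meets in about 1 in 20 groups. Mobp in HIP of Ts66Yah mice was lowest in replicate 4, at 917 CPM. Trf, the iron carrier, was highest in EC of wt replicate 2, at 235 CPM, and in EC of Ts66Yah replicate 5, at 223 CPM. Cryab was highest in EC of Ts66Yah replicate 5, at 87.1 CPM. Both EC libraries were also the highest of their genotype in the summed level of the 28 genes.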

How the results depend on the processing

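The number of called genes stayed at 0 of 28 for the genotype comparisons and the interaction, and at 28 of 28 for the regions, under every alternative run. The median regional difference ran from -2.19 to -2.07 in wt and from -1.92 to -1.90 in Ts66Yah mice, and without 1 mouse from -2.34 to -1.89 and from -2.03 to -1.81. Same-numbered wt and Ts66Yah mice were not paired. With a replicate block the median genotype differences were -0.02 (HIP) and 0.10 (EC) and the regional ones -2.16 (wt) and -1.92 (Ts66Yah), and no call changed.

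The number of positive genotype differences ran from 6 to 18 of 28 in HIP (without wt replicates 4 and 3; Ts66Yah replicate 3 also gave 6) and from 14 to 27 in EC (without Ts66Yah replicate 5 and wt replicate 2). Of the genes followed singly, these changed sign, none of them called. Tspan2 in HIP was 0.000932 with RLE factors, 0.000641 with no filter, 0.0042 with at least 1 CPM in 5 libraries, 0.0011 by DESeq2 and 0.0076 by voom. Ermn in EC was 0.00232, 0.0030, 0.0015, 0.00195 and 0.090 in the same order, 0.0016 with all 22 libraries and 0.017 with the replicate block. Without 1 library, Mog ran from -0.0580 to 0.0770 and Tspan2 from -0.0774 to 0.0484 in HIP. In EC, Mbp ran from -0.12 to 0.24, Mog from -0.0341 to 0.38, Mag from -0.0034 to 0.44, Mobp from -0.25 to 0.25, Cnp from -0.0200 to 0.23, Cldn11 from -0.16 to 0.16 and Ermn from -0.13 to 0.27. The spread between EC libraries of wt mice limits what the EC comparison can show.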

Other observations

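Genes of cholesterol synthesis, a lipid that myelin holds in quantity, went the other way between regions. Of 19, 15 were called higher in EC than in HIP in wt mice and 0 lower (edgeR, median log2 difference 0.45), and 17 higher and 0 lower in Ts66Yah mice (0.40). The share of all tested genes called higher in EC was not worked out, so these counts have no background. Both medians lay above the median over all tested genes of the same comparison, given above. The squalene pathway genes Fdps and Fdft1 had 0.98 and 0.87 in wt mice.

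Other glial and ventricular genes also differed between regions in wt mice. Of 6 astrocyte genes, 3 were called higher and 1 lower in EC in wt mice (median log2 difference 0.06), and 3 higher and 2 lower in Ts66Yah mice. Gfap, the astrocyte filament, had a log2 difference (EC minus HIP) of -2.01 in wt and -2.19 in Ts66Yah mice, while Aldh1l1 had 0.54 and 0.53. In the microglial list, 5 of 6 genes were called higher in EC in wt and 6 of 6 in Ts66Yah mice. The share of all tested genes called lower in EC is given above, and the share called higher was not worked out. The counts of astrocyte and microglial genes called higher therefore have no background here. All 7 choroid plexus genes and all 5 ependymal genes were called lower in EC in both genotypes.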
